A study of Mus musculus with 34 samples.

Results

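Cdx1, Cdx2, Gata6, Hnf4a, Hnf4g, Klf4, Klf5, Elf3 and Prox1 encode transcription factors that set and maintain gut lineages. They were selected by gene name, 9 of the 54354 genes in the count table, and are followed here in every library of the series. The 34 libraries came from mouse colon tumour organoids, epithelial cultures grown as 3-dimensional structures, all with the genotype given as AKP, which the labels do not spell out. Degs1-KO clone2 and Degs1-KO clone1, 9 libraries each, carried a Degs1 knockout made with a CRISPR ribonucleoprotein and were set against 3 Scrambled libraries. In a separate hairpin experiment, 3 libraries labelled shYAP were set against 10 shControl libraries. Each clone and the Scrambled control is 1 line, and the labels do not say whether replicates were separate cultures, so n counts libraries and p-values measure a spread that may be technical.

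In the gut, Cdx2 and its relative Cdx1 specify intestinal rather than gastric epithelium during development and keep that identity in the adult. Hnf4a and Hnf4g are paralogous nuclear receptors that switch on enterocyte genes of lipid handling and the brush border, and Gata6 works with both groups along the intestine. Klf5 is a factor of dividing crypt cells and Klf4 of cells that have left the cycle, Elf3 is an ETS factor of differentiating epithelium, and Prox1 marks secretory cells and is raised in colon tumours with active Wnt signalling.

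Library totals ran from 883253 to 6597099 counts. Sets of libraries with neighbouring numbers were more alike within than between sets of the same group, and the labels name no batch. The sets were replicates 1 to 2, 3 to 6 and 7 to 9 of clone2, 1 to 6 and 7 to 9 of clone1, and 1 to 4, 5 to 7 and 8 to 10 of shControl. They were noticed in these data, so their likeness is a description. The median correlation of their deviations from the group mean was 0.092 within and -0.203 between such sets in clone2, -0.032 and -0.165 in clone1, and 0.183 and -0.235 in shControl. Degs1, the dihydroceramide desaturase, had 1.71 ± 0.892 CPM in clone2 and 2.41 ± 1.32 CPM in clone1 (SD, n = 9 each), against 7.72 ± 2.62 CPM in Scrambled (n = 3). CPM scale each count to the TMM-normalised total of its library. Yap1, the Hippo pathway coactivator, had 20.1, 19.2 and 17.9 CPM in the libraries labelled shYAP, inside the shControl range of 9.49 to 22.0 CPM, so Yap1 mRNA went against that label and every direction below refers to the label only. The summed level of 8 gut epithelial markers (Epcam, Cdh1, Krt8, Krt18, Krt19, Vil1, Cdh17 and Lgals4) reached 2864 to 3723 CPM in clone2, 5782 to 6823 CPM in clone1, 5325 to 5522 CPM in Scrambled, 3851 to 3954 CPM in shYAP and 3793 to 4224 CPM in shControl. Lgals4 averaged 960 CPM in clone2 and 2733 CPM in Scrambled, while Epcam had 241 and 290 CPM and Vil1 81.2 and 95.5 CPM. Krt19 went the other way, with 1177 CPM in clone2 and 918 CPM in Scrambled. Of 8 endothelial markers, 4 to 6 were at 0 in each group, and their sum stayed at or below 3.35 CPM in every library. Of 10 stromal and blood markers, 5 to 8 were at 0 in each group, and Cd68 was the 1 that passed the filter on low counts.

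All 9 factors passed the filter on low counts in each fit, and all were detected in both controls. Hnf4g passed in the knockout fit through Scrambled alone, and Prox1 and Cdx1 in the hairpin fit through shControl alone. On a scale of CPM per kilobase of exon, which allows levels of different genes to be compared, Scrambled libraries averaged 157 for Elf3, 18.0 for Klf5, 12.3 for Hnf4a, 6.52 for Klf4, 4.69 for Cdx2, 1.94 for Hnf4g, 1.57 for Cdx1, 1.28 for Gata6 and 0.502 for Prox1. Elf3 was thus the most abundant of the 9 per length, and Prox1 the least. Cdx1, Gata6, Hnf4g and Prox1 rested on few reads, 41 to 79 counts each over the 3 Scrambled libraries, which limits what can be seen of them.

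**Figure D1:**
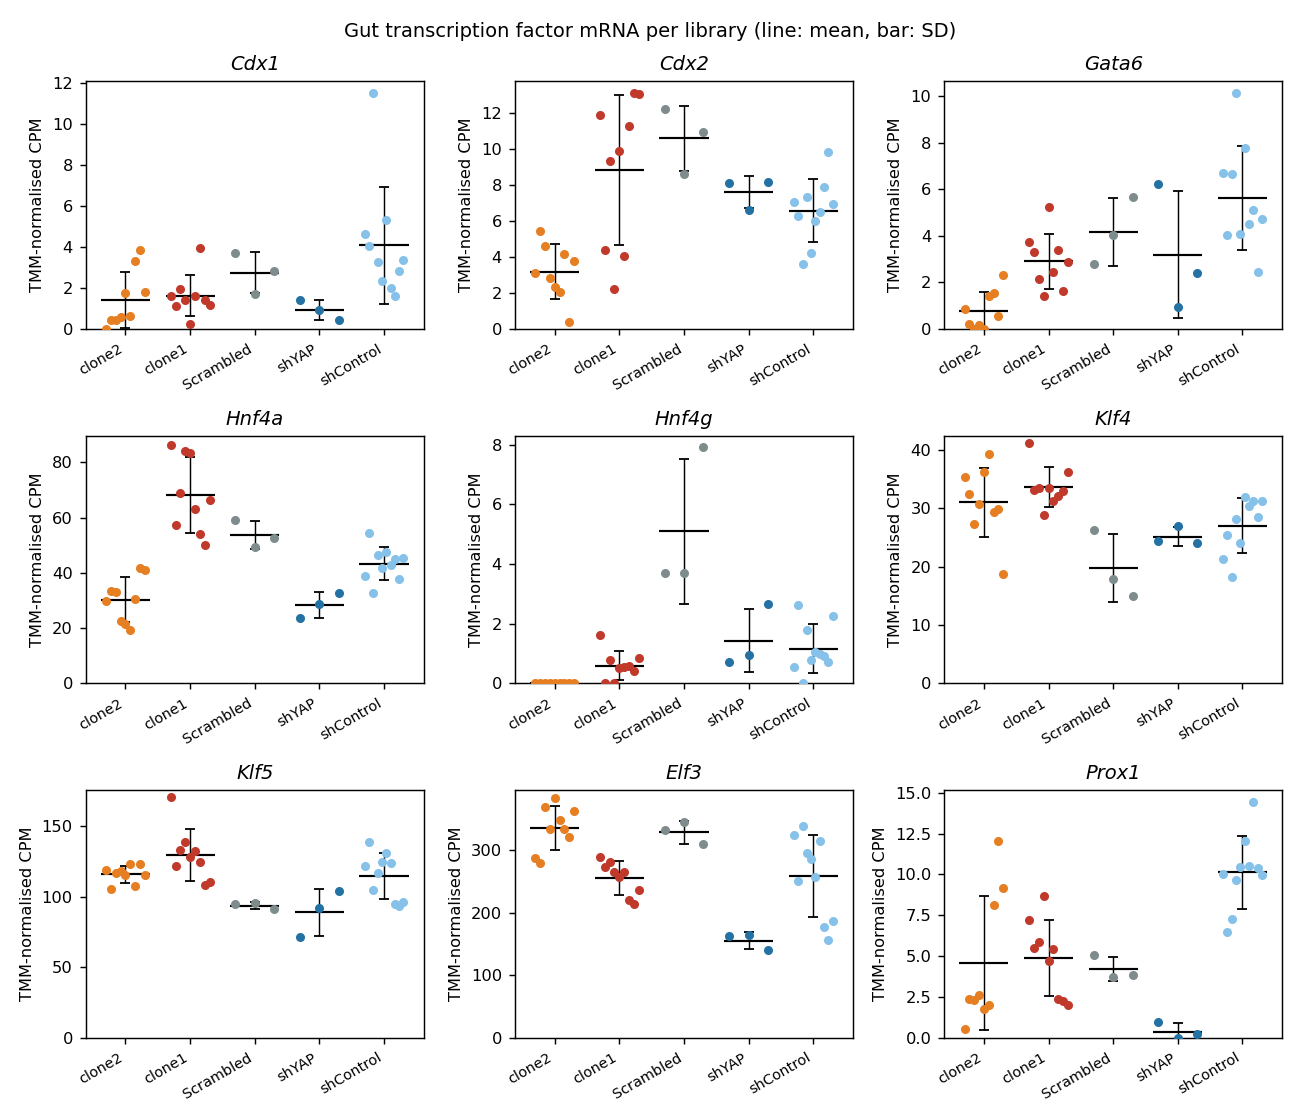
TMM-normalised CPM of each factor in every library, grouped on the x axis as clone2, clone1, Scrambled, shYAP and shControl. Points are libraries, lines are group means and bars are SD. Hnf4g lies at 0 in all 9 clone2 libraries, and Prox1 lies below 1 CPM in the 3 libraries labelled shYAP.

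Clone2 held less Cdx2, Gata6, Hnf4a and Hnf4g mRNA than Scrambled, and more Klf4. These were 5 of the 9 factors past the threshold, 4 lower and 1 higher, where 33.1% of the 11514 genes tested passed, 16.6% lower and 16.5% higher (edgeR quasi-likelihood test, Benjamini-Hochberg adjusted p below 0.05). The median log2 fold change of the 9 was -0.83, against -0.03 for all genes. Hnf4g passed the filter on low counts only through Scrambled, the group where it was high, so its calls against Scrambled follow from that filter and are a description. Without it 4 of the other 8 factors passed in clone2. In every one of the 9 clone2 libraries, each of the 4 lower factors lay below the lowest Scrambled library. Summed gut epithelial markers were lower in the same clone, though Krt19 was higher, at the values above, and their part in the result was not tested.

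Clone1 gave another set. Hnf4g and Elf3 fell and Klf4 and Klf5 rose against Scrambled, 4 of the 9 factors, where 12.7% of all tested genes passed, 5.96% as higher and 6.71% as lower. Without Hnf4g they were 3 of 8. With limma and the sets of library numbers as a random block, Hnf4g and Klf4 passed and Klf5 (adjusted p = 0.0656) and Elf3 (adjusted p = 0.0727) did not, and 456 genes passed in place of 1459. Cdx2, Gata6 and Hnf4a, which fell in clone2, had log2 changes of -0.20 ± 0.39, -0.53 ± 0.55 and 0.36 ± 0.19 (SE) in clone1, and none passed. The median over the 9 factors was -0.20, against 0.03 for all genes. Both clones were set against the same 3 Scrambled libraries, so shared movement of that control enters both comparisons.

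Weighting both clones equally, Gata6 and Hnf4g were lower and Klf4 and Klf5 higher than in Scrambled, 4 of the 9 factors beside 17.6% of all genes, 8.39% higher and 9.21% lower, and 3 of 8 without Hnf4g. The Klf5 rise of both clones was 0.38 ± 0.11 (edgeR adjusted p = 0.0113) and was lost under 5 of 15 alternatives, among them those without Scrambled replicate 1 (0.38, adjusted p = 0.0610) or 3 (0.36, adjusted p = 0.0790) and against shControl (0.09, adjusted p = 0.456). That of Klf4 was 0.71 ± 0.17 (edgeR adjusted p = 0.00281) and was lost without Scrambled replicate 3 (0.54, adjusted p = 0.0690) and against shControl (0.24, adjusted p = 0.0920). The clones themselves were set against each other next. Cdx2, Gata6, Hnf4a and Hnf4g were lower and Elf3 higher in clone2 than in clone1, 5 of the 9 factors, a share close to the 49.1% of all tested genes that passed between the clones, 23.6% as higher and 25.5% as lower in clone2. The 9 factors had a median log2 change of -0.23 between the clones, against -0.05 for all genes.

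The libraries labelled shYAP held less Prox1, Cdx1, Hnf4a and Elf3 than shControl, 4 of the 9 factors, where 11.4% of 11094 tested genes passed in either direction and 5.9% passed as lower. None of the 9 passed as higher. Their median log2 change was -0.61, against -0.05 for all genes. Prox1 and Cdx1 passed the filter on low counts only through shControl, the group where they were high, so their calls are a description. For that reason it is no support for Prox1 that its call stayed under every alternative run. Without Prox1 and Cdx1, the calls left were those of Hnf4a and Elf3. Cdx1, Hnf4a and Elf3 each lost the threshold when single shYAP libraries were left out. The libraries labelled shYAP also had a higher sum of squamous markers, 361 to 450 CPM, against 75.2 to 223 CPM in shControl. Most of it came from Sprr1a (mean 231 CPM in shYAP, 70.2 CPM in shControl) and Krt4 (143 and 51.2 CPM). The squamous markers Krt5 and Trp63 had 2 and 0 counts in the libraries labelled shYAP. The part of this sum in the falls of the factors was not tested.

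**Figure D2:**
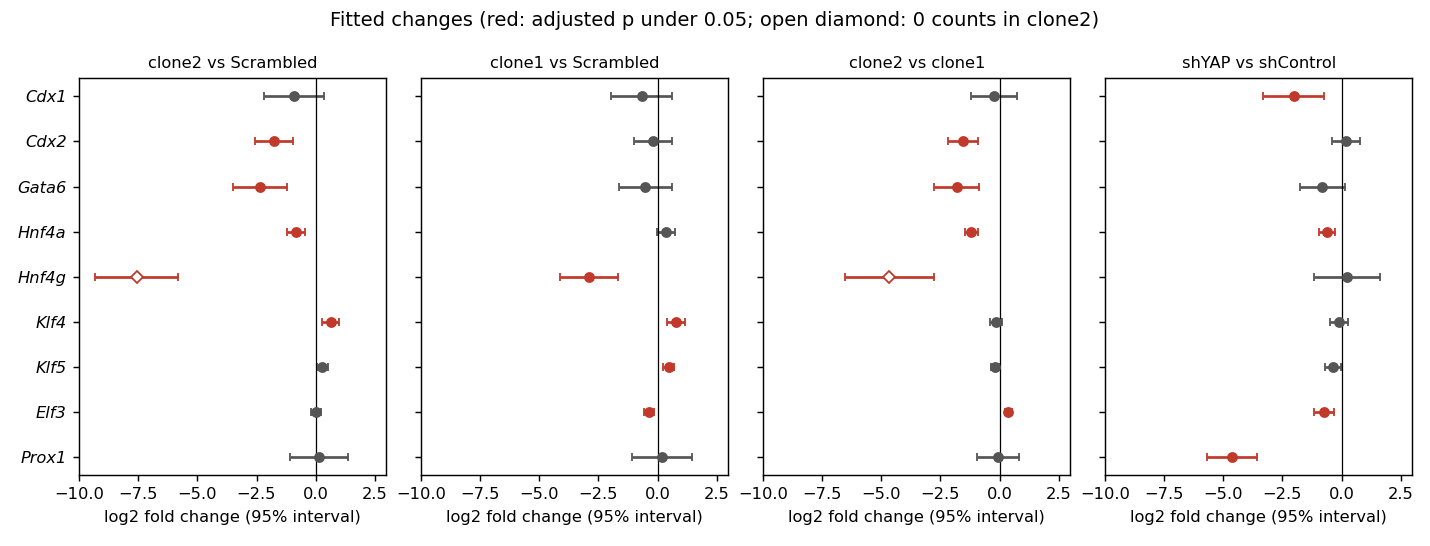
Fitted log2 fold changes (x axis) with 95% intervals for the 9 factors in 4 comparisons. Red points have an adjusted p below 0.05, and the open diamonds mark Hnf4g, whose clone2 libraries are all at 0 so that the fitted value depends on the prior count. Cdx2, Gata6 and Hnf4a lie left of 0 in both panels that set clone2 on top, and Prox1 lies farthest left in the shYAP panel.

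Cdx2 encodes a caudal homeobox factor and lies on chromosome 5 (147300805 to 147307270, minus strand, mm10, GENCODE M21). In the 9 clone2 libraries it ran from 0.383 to 5.47 CPM with a median of 3.11 CPM, and in the 9 clone1 libraries from 2.25 to 13.2 CPM with a median of 9.91 CPM. The 3 Scrambled libraries had 12.2, 8.65 and 10.95 CPM. Clone2 thus lay wholly below Scrambled, while clone1 overlapped both the clone2 and the Scrambled ranges. Against Scrambled the log2 fold change was -1.75 ± 0.39 in clone2 (edgeR adjusted p = 0.000822), and against clone1 that of clone2 was -1.55 ± 0.31 (adjusted p = 0.000116). With both clones weighted equally Cdx2 had -0.97 ± 0.35 and missed the threshold (edgeR adjusted p = 0.0549). In the hairpin experiment the libraries labelled shYAP had 8.14, 6.62 and 8.16 CPM, inside the shControl range of 3.64 to 9.86 CPM, and the log2 change was 0.18 ± 0.28. In a fit of all 34 libraries, Cdx2 in clone2 was also lower than in shControl (-1.07 ± 0.28, edgeR adjusted p = 0.00168), a pair of groups that differ in experiment too. Clone1 was uneven, at 11.3 to 13.2 CPM in replicates 7 to 9 and 2.25 to 11.9 CPM in replicates 1 to 6.

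The promoter windows of Cdx2 and of Hnf4a, which both fell in clone2, are shown because CDX2 and HNF4A are known to act together on genes of gut epithelium. Each is 300 bases long, from 250 before to 50 after the annotated start, read 5′ to 3′ on the gene's strand from RefSeq on GRCm38.p6, which matched 5 of the 9 factors. The windows are chr5:147307200-147307499 (minus strand) for Cdx2, chr2:163506607-163506906 (plus strand) for the upstream Hnf4a start and chr2:163546905-163547204 (plus strand) for the downstream one.
Cdx2: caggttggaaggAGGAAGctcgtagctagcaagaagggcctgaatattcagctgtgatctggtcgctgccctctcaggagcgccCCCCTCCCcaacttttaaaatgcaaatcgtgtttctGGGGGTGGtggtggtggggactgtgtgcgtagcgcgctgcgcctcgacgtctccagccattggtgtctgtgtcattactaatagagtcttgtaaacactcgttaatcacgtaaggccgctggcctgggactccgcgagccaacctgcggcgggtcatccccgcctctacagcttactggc
Hnf4a upstream: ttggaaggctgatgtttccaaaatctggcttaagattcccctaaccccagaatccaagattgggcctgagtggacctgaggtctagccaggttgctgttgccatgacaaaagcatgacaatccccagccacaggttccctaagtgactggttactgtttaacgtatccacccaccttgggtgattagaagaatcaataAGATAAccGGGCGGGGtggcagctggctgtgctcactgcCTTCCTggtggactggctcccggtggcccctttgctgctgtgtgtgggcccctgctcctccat
Hnf4a downstream: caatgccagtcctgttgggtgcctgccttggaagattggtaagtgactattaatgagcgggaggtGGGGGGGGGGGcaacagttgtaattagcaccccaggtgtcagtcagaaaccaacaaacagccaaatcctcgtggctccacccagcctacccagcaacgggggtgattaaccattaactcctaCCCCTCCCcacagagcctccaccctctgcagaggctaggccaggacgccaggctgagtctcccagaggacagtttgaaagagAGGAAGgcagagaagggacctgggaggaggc
Capitals mark matches, on either strand, to TTTATNG for CDX factors, CAAAGNNCA for HNF4, AGATAA for GATA factors, CCNCNCCC for KLF factors and AGGAAG for ETS factors. KLF and ETS letters occurred in all 3 windows, and the upstream Hnf4a window also held 1 GATA match. The KLF matches at the start of the downstream Hnf4a window overlap each other in a run of G. None of the 3 windows held these CDX or HNF4 letters, which says nothing of binding elsewhere. Among all 32851 mouse promoter windows of that length, 10.9% held the CDX letters, 6.36% the HNF4 letters, 11.2% the GATA letters, 49.5% the KLF letters and 35.4% the ETS letters.

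Cdx1, the other caudal factor (chromosome 18, 61018862 to 61036199), was scarce. Clone2 libraries ran from 0 to 3.83 CPM with a median of 0.613 CPM, clone1 libraries from 0.261 to 3.97 CPM with a median of 1.44 CPM, and Scrambled libraries had 3.70, 1.70 and 2.84 CPM. The groups overlapped, and log2 changes of -0.91 ± 0.62 in clone2 and -0.68 ± 0.63 in clone1 did not pass. In the libraries labelled shYAP Cdx1 had 1.44, 0.946 and 0.441 CPM, from 12 counts in all, against 1.63 to 11.5 CPM with a median of 3.33 CPM in shControl. These groups did not overlap, and the log2 fold change was -2.02 ± 0.62 (edgeR adjusted p = 0.0369). Cdx1 passed the filter on low counts in this fit only through shControl, the group where it was high, so this call is a description. Without shYAP replicate 1, 2 or 3 the value was -2.44, -2.03 or -1.70 and the adjusted p 0.0747, 0.134 or 0.176, and with shControl replicates 5 to 10 alone -1.59 (adjusted p = 0.0810). The highest shControl value, 11.5 CPM, came from replicate 3, the shallowest of that group at 1747533 counts.

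Gata6, a zinc finger factor of gut endoderm (chromosome 18, 11052064 to 11085635), was lowest in clone2. Its level there ran from 0 to 2.30 CPM with a median of 0.575 CPM, with 2 of 9 libraries at 0, and in clone1 from 1.403 to 5.22 CPM with a median of 2.88 CPM. Scrambled libraries had 2.77, 4.02 and 5.68 CPM. All clone2 libraries lay below all Scrambled libraries, while 5 of the 9 clone1 libraries lay inside the Scrambled range. The log2 fold change in clone2 was -2.35 ± 0.57 against Scrambled (edgeR adjusted p = 0.00126) and -1.82 ± 0.47 against clone1 (adjusted p = 0.00139). For both clones together it was -1.44 ± 0.50 (edgeR adjusted p = 0.0394), a call lost under 8 of 15 alternatives. Among these were the fits without Scrambled replicate 1 (-1.65, edgeR adjusted p = 0.0581), 2 (-1.46, adjusted p = 0.128) or 3 (-1.16, adjusted p = 0.251). Between the clones, replicates 7 to 9 alone gave -0.79 for Gata6 and did not pass (adjusted p = 0.264). Genes of chromosome 18 moved the other way in clone2, with a median log2 change of 0.47 against Scrambled and 0.36 against clone1 over 291 genes. Libraries labelled shYAP had 6.22, 0.946 and 2.43 CPM of Gata6, against 2.47 to 10.1 CPM in shControl, with a change of -0.81 ± 0.46 that did not pass.

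Hnf4a (chromosome 2, 163506808 to 163572910, plus strand) showed the clearest split between the clones. Clone2 libraries ran from 19.4 to 41.8 CPM with a median of 30.6 CPM, and clone1 libraries from 49.96 to 86.3 CPM with a median of 66.3 CPM. Scrambled libraries had 59.1, 49.3 and 52.5 CPM. Every clone2 library lay below every Scrambled and every clone1 library, and 6 of 9 clone1 libraries lay above all Scrambled libraries. The log2 fold change in clone2 was -0.83 ± 0.18 against Scrambled (edgeR adjusted p = 0.000514) and -1.19 ± 0.14 against clone1 (adjusted p = 7.68e-09). In clone1 it was 0.36 ± 0.19 against Scrambled and did not pass (edgeR adjusted p = 0.237). Replicates 1 to 6 of the clones alone gave 0.50 for Hnf4a in clone1 (adjusted p = 0.0283), and shControl in place of Scrambled gave 0.64 (adjusted p = 0.000314).

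The libraries labelled shYAP had 23.7, 28.6 and 32.9 CPM of Hnf4a, against 32.7 to 54.3 CPM with a median of 44.0 CPM in shControl. Of the 3, 2 lay below all shControl libraries and the third was near the lowest. The log2 fold change was -0.61 ± 0.17 (edgeR adjusted p = 0.0226), with -0.49 (adjusted p = 0.162) for Hnf4a without shYAP replicate 1 and -0.62 (adjusted p = 0.108) without replicate 2. Without any filter on low counts it was -0.61 as well (edgeR adjusted p = 0.0502). The 2 annotated Hnf4a starts lie 40298 bases apart, and counts per gene do not tell their transcripts apart.

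Hnf4g, the paralog that is mainly expressed in gut (chromosome 3, 3508030 to 3658052), had no read in any of the 9 clone2 libraries. Clone1 libraries ran from 0 to 1.63 CPM with a median of 0.543 CPM and 25 counts in all, and Scrambled libraries had 3.70, 3.71 and 7.91 CPM, 79 counts. Each of the 18 knockout libraries lay below each Scrambled library. With a floor of 3 counts over clone2 set against the pooled level of the other group, Hnf4g was 72.9-fold lower than in Scrambled and 9.76-fold lower than in clone1. The error of the reference counts is not in these values, so they are not strict bounds. In clone1 the log2 fold change was -2.90 ± 0.60 against Scrambled, given without a test since Hnf4g passed the filter only through Scrambled. Hnf4g in the libraries labelled shYAP had 0.718, 0.946 and 2.65 CPM, against 0 to 2.63 CPM in shControl, and the change of 0.23 ± 0.67 did not pass. The controls themselves differed here. In the fit of all 34 libraries Hnf4g was higher in Scrambled than in shControl by 2.03 ± 0.56 (edgeR adjusted p = 0.0367), the 1 factor of the 9 that passed between the controls, where 2.95% of 11960 genes did. Clone1 against shControl gave -0.89 ± 0.51 for Hnf4g and did not pass (edgeR adjusted p = 0.244), while 9 of 10 shControl libraries had Hnf4g reads and none of the clone2 libraries did.

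The balance within the HNF4 pair is given as shares of reads, without a test. Hnf4g made up 0% of Hnf4a plus Hnf4g reads in clone2, 0.846% ± 0.593 in clone1 (SD, n = 9 each) and 8.66% ± 3.88 in Scrambled (n = 3), where the 3 libraries ranged from 5.88% to 13.1%. It made up 4.53% ± 2.53 in the libraries labelled shYAP (n = 3) and 2.46% ± 1.48 in shControl (n = 10). In clone1 the share was low with Hnf4a at its highest group mean, 68.2 ± 13.6 CPM, and in clone2 both members were low.

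Klf4 (chromosome 4, 55527143 to 55532466), the Krüppel-like factor of post-mitotic colon epithelium, ran from 18.7 to 39.2 CPM with a median of 30.7 CPM in clone2 and from 28.9 to 41.1 CPM with a median of 33.2 CPM in clone1. Scrambled libraries had 26.3, 17.9 and 15.01 CPM. All 9 clone1 and 8 of 9 clone2 libraries lay above the highest Scrambled library. The log2 fold change was 0.64 ± 0.18 in clone2 (edgeR adjusted p = 0.00581) and 0.78 ± 0.18 in clone1 (adjusted p = 0.003). Both calls of Klf4 rested on Scrambled replicate 3, without which the values were 0.47 (adjusted p = 0.0898) in clone2 and 0.62 (adjusted p = 0.0558) in clone1. With shControl in place of Scrambled they were 0.18 (edgeR adjusted p = 0.238) and 0.29 (adjusted p = 0.0754). The 3 libraries labelled shYAP had 24.4, 27.0 and 24.0 CPM of Klf4, inside the shControl range of 18.19 to 31.9 CPM, with a change of -0.12 ± 0.18.

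Klf5 (chromosome 14, 99298691 to 99315036), the Krüppel-like factor of proliferating crypt cells, moved less. It ran from 106 to 123 CPM with a median of 117 CPM in clone2 and from 109 to 171 CPM with a median of 128 CPM in clone1, and Scrambled libraries had 94.7, 95.3 and 91.1 CPM. All 18 knockout libraries lay above all 3 Scrambled libraries. The rise was 0.48 ± 0.12 in clone1 (edgeR adjusted p = 0.00469), while clone2 had 0.29 ± 0.12 and narrowly missed the threshold (adjusted p = 0.0503). Against shControl, which ran from 93.5 to 139 CPM, clone1 had 0.17 for Klf5 and did not pass (edgeR adjusted p = 0.204). In the libraries labelled shYAP Klf5 had 71.3, 91.8 and 104 CPM, and the change of -0.37 ± 0.16 against shControl did not pass (edgeR adjusted p = 0.142). Klf4 made up 20.99% ± 3.23 of Klf4 plus Klf5 reads in clone2, 20.7% ± 2.22 in clone1 and 17.2% ± 3.997 in Scrambled, with overlapping ranges.

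Elf3 (chromosome 1, 135253575 to 135258568), the epithelial ETS factor, had 280 to 384 CPM with a median of 334 CPM in clone2 and 214 to 289 CPM with a median of 265 CPM in clone1. Scrambled libraries had 332, 345 and 310 CPM. Clone1 lay wholly below Scrambled, and clone2 spread around it. The log2 fold change in clone1 was -0.36 ± 0.11 against Scrambled (edgeR adjusted p = 0.0176), and clone2 had 0.01 ± 0.11. Clone2 was higher than clone1 by 0.37 ± 0.08 (edgeR adjusted p = 0.000108). Without Scrambled replicate 1 or 2, Elf3 in clone1 had -0.36 (adjusted p = 0.0762) or -0.32 (adjusted p = 0.134), and against shControl it had -0.03 (adjusted p = 0.893).

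In the libraries labelled shYAP Elf3 had 162, 164 and 140 CPM, against 156 to 338 CPM with a median of 272 CPM in shControl, and the log2 fold change was -0.74 ± 0.21 (edgeR adjusted p = 0.0259). The shControl libraries were not uniform. Replicates 8 to 10 had 177, 156 and 187 CPM, while replicates 1 to 7 had 251 to 338 CPM. Against shControl replicates 8 to 10 alone the Elf3 change was -0.16 and did not pass (edgeR adjusted p = 0.235). Leaving out shYAP replicate 1, 2 or 3 gave Elf3 values of -0.76, -0.78 and -0.69, with adjusted p of 0.0942, 0.0985 and 0.128.

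Prox1 (chromosome 1, 190118035 to 190170714), the Prospero-type homeobox factor, all but disappeared from the libraries labelled shYAP. They had 0.957, 0 and 0.221 CPM, from 5 counts in all, against 6.46 to 14.4 CPM with a median of 10.2 CPM in the 10 shControl libraries. The groups were far apart, and the log2 fold change was -4.62 ± 0.51. It is given without a test, since Prox1 passed the filter on low counts only through shControl, the group where it was high. Prox1 is also a factor of lymphatic endothelium. Of the 8 endothelial and lymphatic markers, Lyve1 averaged 0.080 CPM in the libraries labelled shYAP and 0.197 CPM in shControl, from 1 and 11 counts. Pecam1 was higher in the libraries labelled shYAP, at 1.88 CPM against 1.01 CPM, from 24 and 44 counts. Cdh5, Kdr and Cldn5 were at 0 in all 34 libraries. Their part in the fall of Prox1 was not tested. Prox1os, annotated on the opposite strand over the Prox1 start, averaged 0.074 CPM in the libraries labelled shYAP (1 count) and 1.25 CPM in shControl (59 counts). Whether the counting used strand was not stated.

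In the knockout experiment Prox1 averaged 4.57 ± 4.10 CPM in clone2 and 4.90 ± 2.32 CPM in clone1, against 4.21 ± 0.755 CPM in Scrambled, and no change passed. These means hid a split by library number. Clone2 replicates 7 to 9 had 8.15, 12.1 and 9.20 CPM, and its replicates 1 to 6 had 0.565 to 2.64 CPM. Clone1 went the other way, with 2.38, 2.26 and 2.04 CPM in replicates 7 to 9 and 4.70 to 8.70 CPM in replicates 1 to 6. Scrambled had 5.08, 3.71 and 3.85 CPM, of which the highest fell inside the clone1 range for replicates 1 to 6. The log2 change of Prox1 in clone2 over clone1 was 2.15 within replicates 7 to 9 and -1.66 within replicates 1 to 6. The split was noticed in these values, so they are a description with no test.

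Such a split was not general among the 9 factors. In clone2, 2 of the 9 had ranges that did not overlap between replicates 7 to 9 and 1 to 6, Prox1 and Cdx1, where 11.2% of the tested genes did, and in clone1 Prox1 and Elf3 did, where 12.7% of genes did. Prox1 was the 1 factor that split in both clones, in opposite directions, as 1.02% of tested genes did, and 1.33% split in both clones in the same direction. Cdx1 in clone2 had 1.81 to 3.83 CPM in replicates 7 to 9 and 0 to 1.77 CPM in replicates 1 to 6. Elf3 in clone1 had 214 to 236 CPM in replicates 7 to 9 and 258 to 289 CPM in replicates 1 to 6. Within replicates 7 to 9 the change of clone2 over clone1 was -0.56 for Hnf4a (edgeR adjusted p = 0.00121), -2.14 for Cdx2 (adjusted p = 5.27e-05) and 0.62 for Elf3 (adjusted p = 4.82e-08). Within replicates 1 to 6 it was -1.51 for Hnf4a (edgeR adjusted p = 4.56e-11), -1.12 for Cdx2 (adjusted p = 0.00707) and 0.28 for Elf3 (adjusted p = 0.00852), so their directions held in each set and their sizes differed.

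**Figure D3:**
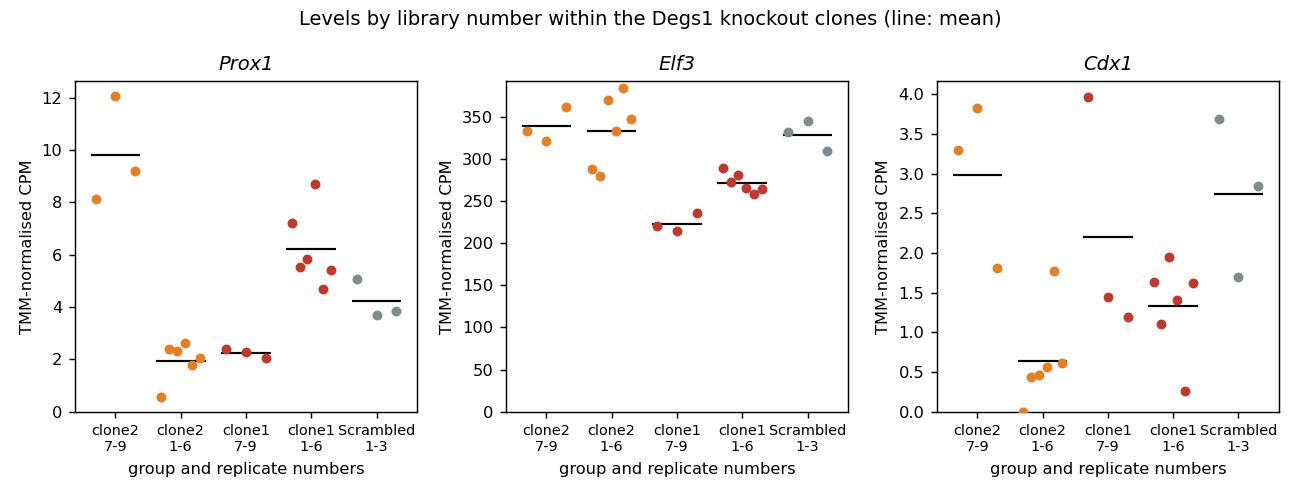
TMM-normalised CPM (y axis) of Prox1, Elf3 and Cdx1 in the knockout experiment, with the libraries of each clone split into replicates 7 to 9 and 1 to 6. Points are libraries and lines are means. Prox1 is high in clone2 replicates 7 to 9, at 8.15 to 12.1 CPM, and low in clone1 replicates 7 to 9, at 2.04 to 2.38 CPM.

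Over all 5 groups, 42 of the 90 member-by-pair tests in the fit of all 34 libraries passed, between 36 and 44 under the alternatives other than an adjusted p below 0.01, which left 33. The share of all 11960 genes that passed in that fit was 44.6% for clone2 over clone1, 28.6% for clone2 over Scrambled, 35% for clone2 over shYAP and 38.5% for clone2 over shControl. It was 9.78% for clone1 over Scrambled, 24.5% for clone1 over shYAP and 20.9% for clone1 over shControl. It was 11.2% between Scrambled and shYAP and 17.3% for shYAP over shControl. Ordered by mean level, Cdx2 ran Scrambled, clone1, shYAP, shControl and clone2, and of the neighbours only clone2 and shControl differed. Hnf4a ran clone1, Scrambled, shControl, clone2 and shYAP, with the step between clone2 and shControl past the threshold (-0.51 ± 0.13, edgeR adjusted p = 0.00117) and clone2 not shown to differ from shYAP (0.10 ± 0.19). Gata6 ran shControl, Scrambled, shYAP, clone1 and clone2, and Hnf4g ran Scrambled, shYAP, shControl, clone1 and clone2; in both only clone2 and clone1 differed as neighbours. Elf3 ran clone2, Scrambled, shControl, clone1 and shYAP, and clone1 was higher than shYAP by 0.72 ± 0.16 (edgeR adjusted p = 0.000737). For Prox1 the order was shControl, clone1, clone2, Scrambled and shYAP, where clone1 and shControl (-1.08 ± 0.35 for clone1 over shControl, edgeR adjusted p = 0.0218) and shYAP and Scrambled differed. No neighbours differed beyond their spread for Klf4 (clone1, clone2, shControl, shYAP, Scrambled), Klf5 (clone1, clone2, shControl, Scrambled, shYAP) or Cdx1 (shControl, Scrambled, clone1, clone2, shYAP).

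Whether the knockout and the hairpin moved the factors differently was tested as a difference of effects, both clones over Scrambled minus shYAP over shControl, in the fit of all 34 libraries. This contrast was added after the values were known. It passed for 4 of the 9 factors, where 18.8% of genes did. Klf4 (0.83 ± 0.25, edgeR adjusted p = 0.0138), Klf5 (0.75 ± 0.18, adjusted p = 0.00238) and Prox1 (4.79 ± 0.94, adjusted p = 0.000345) were higher under the knockout than under the hairpin label, and Hnf4g was lower, by a fitted value that depends on the clone2 libraries at 0. The Klf4 difference was lost without Scrambled replicate 2 (0.77, adjusted p = 0.0522) or 3 (0.66, adjusted p = 0.0810). Cdx1, Cdx2, Gata6, Hnf4a and Elf3 had differences of 1.23 ± 0.90, -1.15 ± 0.49, -0.63 ± 0.69, 0.38 ± 0.25 and 0.57 ± 0.21 that did not pass.

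Likeness of pattern was measured as the root mean square difference between centred log2 means over the 5 groups, among the 6836 genes whose average log2 CPM was 3 or more, as a description over 5 points. The gene nearest Cdx2 was Mcm5, a subunit of the replicative helicase, at a distance of 0.0487, and Dynlt1c was also near at 0.0685, where the Cdx2 pattern itself had a spread of 0.583. Hnf4a was nearest Ly6m (0.0626, own spread 0.479), Elf3 nearest the lysosomal galactosidase gene Glb1 (0.0502, own spread 0.399), Klf4 nearest the AP-1 gene Jund (0.044, own spread 0.268) and Klf5 nearest Zmym2 (0.0318, own spread 0.203). The scarcer factors had no close match. Cdx1 was nearest the ETS factor gene Etv5 (0.174), Hnf4g nearest the chemokine gene Ccl5 (0.262) and Prox1 nearest the transferrin gene Trf (0.451).

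Other genes of the same pathways were read from lists. Of 30 other gut transcription factors 23 were tested in the knockout fit. In clone2, 4 rose and 4 fell against Scrambled, with a median log2 change of -0.17, and in clone1 1 rose and 2 fell, with a median of 0.19. Of all tested genes 33.1% passed in clone2 and 12.7% in clone1, shares near those of the list. Maf, a factor of enterocyte maturation, fell by 2.21 ± 0.47 in clone2 (edgeR adjusted p = 0.000336) and Foxa2, an endoderm pioneer factor, rose by 2.22 ± 0.63 (adjusted p = 0.00618), a call lost under 3 of 15 alternatives. In clone1 Isx, a gut homeobox factor of vitamin A metabolism, fell by 3.01 ± 0.25 (edgeR adjusted p = 2.53e-11) and the stem cell factor Ascl2 by 1.90 ± 0.40 (adjusted p = 0.00397, lost under 2 of 15 alternatives). For both clones together Isx gave -2.41 (edgeR adjusted p = 5.25e-11), a call lost under 1 of 15 alternatives. Isx was highest in Scrambled, with a mean of 24.8 CPM, and next in the libraries labelled shYAP, with 17.6 CPM. It averaged 3.19 CPM in clone1, 7.14 CPM in clone2 and 6.27 CPM in shControl. Gata4, Gata5 and Cdx4 were at 0 counts in all libraries. Of the 18 factors of secretory lineages 3 were tested and 2 fell in clone2, where Xbp1, a factor of the secretory stress response, fell by 0.63 ± 0.14 (edgeR adjusted p = 0.00082).

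Among 15 other Krüppel-like genes 10 were tested, and 2 rose in each clone. The TGF-beta inducible gene Klf10 rose by 1.08 ± 0.12 in clone2 (edgeR adjusted p = 7.67e-09) and the hormone-responsive gene Klf9 by 1.197 ± 0.20 in clone1 (adjusted p = 5.56e-05), a call lost with shControl in place of Scrambled. As higher, 16.5% of all tested genes passed in clone2 and 5.96% in clone1. The list medians were 0.26 in clone2 and 0.29 in clone1. In the libraries labelled shYAP 3 of 10 fell and none rose, with a median of -0.30, where 5.9% of all tested genes were lower. Klf7 fell by 0.69 ± 0.20 (edgeR adjusted p = 0.0296) and Klf9 by 0.65 ± 0.21 (adjusted p = 0.0437), and 7 and 8 of 15 alternatives ended these calls.

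Lists of brush border and intestinal epithelial genes were read in the same way, beside 16.6% of all tested genes lower and 16.5% higher in clone2, and 6.71% lower and 5.96% higher in clone1. Of 15 brush border genes 13 were tested, 8 fell and 1 rose in clone2, with a median log2 change of -0.88, while in clone1 1 rose and none fell, with a median of 0.42. The microvillar protocadherin Cdhr5 fell by 3.18 ± 0.52 (edgeR adjusted p = 8.57e-06) and the brush border myosin Myo1a by 2.77 ± 0.43 (adjusted p = 2.96e-06) in clone2. Of 25 intestinal epithelial genes 19 were tested, 14 fell and 2 rose in clone2, with a median of -1.004, and in clone1 7 rose and 1 fell, with a median of 0.12. Muc13, a membrane mucin, averaged 15.6 ± 8.76 CPM in clone2 and 277 ± 66.4 CPM in clone1, against 88.5 ± 3.48 CPM in Scrambled. Lypd8, a secreted anti-bacterial colon protein, fell by 3.37 ± 0.34 in clone2 (edgeR adjusted p = 8.65e-08). In clone1 the carbonic anhydrase gene Car1 rose by 2.96 ± 0.49 (edgeR adjusted p = 0.000402) and the surface keratin Krt20 by 1.95 ± 0.41 (adjusted p = 0.00122), a call lost for Krt20 with that random block (adjusted p = 0.0517). In clone2, Car1 was higher too, by 1.42 ± 0.44 (edgeR adjusted p = 0.0178), a call lost under 5 of 15 alternatives.

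Set directly against clone1, clone2 had 10 of 13 brush border and 16 of 19 epithelial genes lower and none higher, with medians of -0.91 and -1.26, where 25.5% of all tested genes were lower. The log2 change was -3.21 ± 0.21 for Cdhr2, another microvillar protocadherin (edgeR adjusted p = 1.78e-12) and -4.20 ± 0.28 for Muc13 (adjusted p = 3.86e-10). These are bulk libraries, in which fewer cells of a type and less RNA per cell cannot be told apart. Of 16 genes of lipid and metabolite handling, 14 were in the table and 8 tested, and 1 rose and 3 fell in clone2 with a median of -0.22, beside 16.5% of all tested genes higher and 16.6% lower. The fatty acid binding gene Fabp2 rose by 2.29 ± 0.49 in clone2 (edgeR adjusted p = 0.000646) and by 1.84 ± 0.50 in clone1 (adjusted p = 0.0131, lost under 4 of 15 alternatives). Acsl5 fell by 0.70 in clone2 (edgeR adjusted p = 0.000106) and rose by 0.47 in clone1 (adjusted p = 0.0224, lost under 4 of 15 alternatives). Cpt1a fell by 0.62 in clone2 (edgeR adjusted p = 0.0150, lost under 6 of 15 alternatives). Ttr averaged 0.126 CPM in clone2 and 2.22 CPM in Scrambled.

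Against shControl, 5.47% of all tested genes were higher and 5.9% lower in the libraries labelled shYAP. The brush border list had 1 higher and 3 lower of 12, with a median of -0.04, and the epithelial list 2 higher and 1 lower of 18, with a median of 0.05. Espn, an actin bundler, fell by 3.95 ± 0.57 (edgeR adjusted p = 0.000178) and the epithelial tetraspanin Tspan8 rose by 0.84 ± 0.12 (adjusted p = 0.000117). Of 22 other gut factors tested 1 rose and 3 fell, with a median of -0.51, and Myb, a factor of crypt progenitors, fell by 3.09 ± 0.52 (edgeR adjusted p = 0.000547). Espn and Myb passed the filter on low counts in this fit only through shControl, so these 2 falls are a description. Isx rose by 1.47 ± 0.26 (edgeR adjusted p = 0.00104), a call lost with limma and library numbers as a random block (adjusted p = 0.0506).

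Markers of other epithelia did not take the place of the intestinal genes in one pattern. Of 16 gastric genes 3 were tested, and none passed in clone2 against Scrambled. In clone1 1 rose and 1 fell against Scrambled, where 5.96% of all tested genes were higher and 6.71% lower. In clone2 over clone1 1 was higher and 2 lower, where 23.6% of all tested genes were higher and 25.5% lower. Ctse, a gastric protease, fell by 2.35 ± 0.70 in clone1 against Scrambled (edgeR adjusted p = 0.021, lost under 4 of 15 alternatives) and was higher in clone2 than in clone1 by 2.96 ± 0.55 (adjusted p = 3.25e-05). The other gastric genes tested were Gkn1 and Tff1, named after their values were seen. Both had an average log2 CPM below 1, and neither was followed under the alternatives. Gkn1, a gastrokine, passed the filter on low counts only through clone1, the group where it was high, so its values are a description without a test. Its log2 change was 2.58 ± 0.86 in clone1 against Scrambled and -1.38 ± 0.51 in clone2 over clone1. The trefoil gene Tff1 averaged 2.32 CPM in clone1, 0.760 CPM in clone2 and 0.460 CPM in Scrambled. It too passed the filter only through clone1, so its log2 change of -1.63 ± 0.58 for clone2 over clone1 is a description. The 2 lower calls of clone2 over clone1 were Gkn1 and Tff1. Of 12 squamous genes 7 were tested, and 2 rose and 2 fell in clone2, where 16.5% of all tested genes were higher and 16.6% lower. In the libraries labelled shYAP 3 rose and none fell, where 5.47% of all tested genes were higher. Here Ivl, a protein of the cornified envelope, rose by 3.18 ± 0.49 (edgeR adjusted p = 0.000237) and Sprr1a by 1.71 ± 0.29 (adjusted p = 0.00168).

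**Figure D4:**
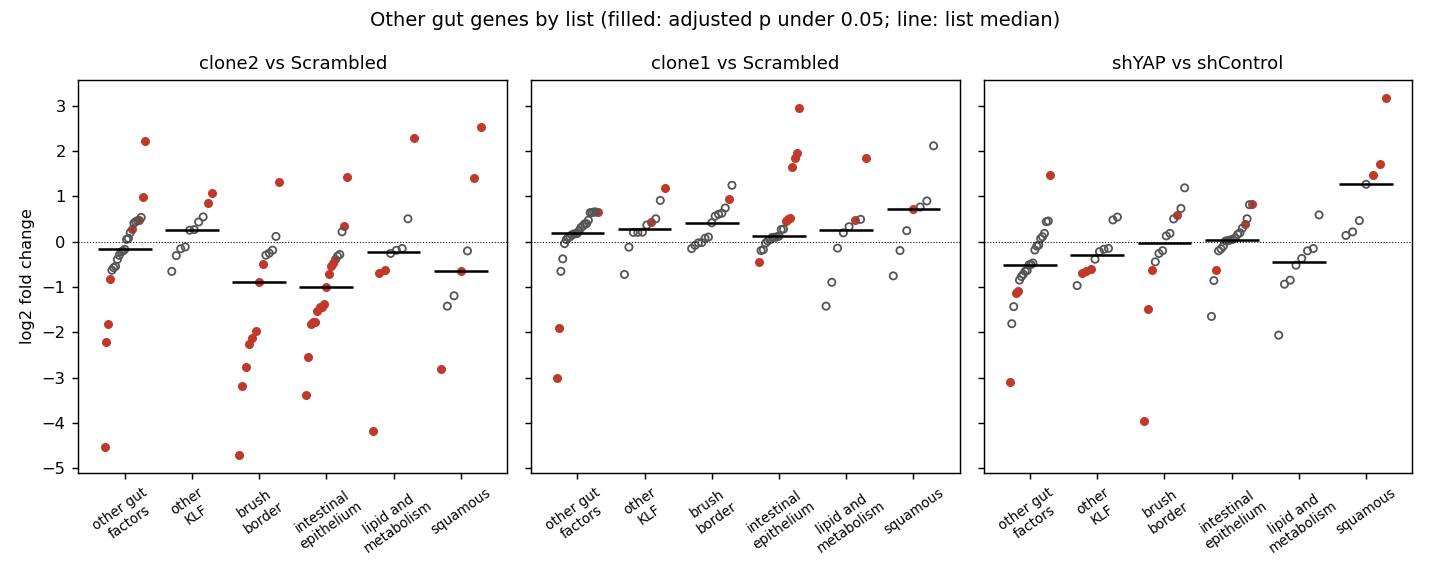
Log2 fold changes (y axis) of the tested genes in 6 lists of other gut and epithelial genes, for clone2 and clone1 against Scrambled and shYAP against shControl. Filled points have an adjusted p below 0.05, open points do not, and lines are list medians. In the clone2 panel most brush border and intestinal epithelium genes lie below 0, with medians of -0.88 and -1.004.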

How the data were processed

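RNA from 34 organoid libraries was measured by poly(A)-selected, strand-marking sequencing (NEBNext Ultra II Directional), per the labels' protocols. The deposited table gives expected counts per gene that the authors obtained with Salmon 1.3.0 on mm10, per the submitters' processing notes. They are whole numbers, not scaled between libraries. The annotation release, how transcripts were summed and whether counting used strand are not given in the sources used here. Of 54354 genes, 29742 had 0 counts everywhere. The 1243 entries without a name, at most 0.0475% of a library, were not tested.

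The members and lists were chosen with earlier results of these data known. Genes were kept with filterByExpr (minimum count 10, minimum total 15), normalised by TMM and tested two-sided by robust quasi-likelihood in edgeR 4.0.16 (R 4.3.3), with Benjamini-Hochberg adjustment over all genes tested and a threshold of 0.05. The 21 knockout libraries shared 1 fit (11514 genes), the 13 hairpin libraries another (11094), and all 34 another again (11960). Their common biological coefficients of variation were 0.218, 0.281 and 0.248. Errors of log2 fold changes are SE. Intervals cover the fitted spread alone, and floors the counting of the group at 0 alone.

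Groups follow the labels. Libraries of 2 groups that shared a number did not deviate together (correlations from -0.139 to 0.224), so no block was fitted. From each of 10 lists with 165 genes in all, the rule let the text name, per comparison, up to 2 called rises and 2 called falls whose average log2 CPM was 1 or more, and the 9 factors always. Some genes that the rule would name are not reported here. Nearest patterns used log2 of CPM plus 0.5, and a limit of 3 on mean log2 CPM. Gene positions and exon lengths come from GENCODE M21, promoter windows from RefSeq on GRCm38.p6. The steps were tested on simulated data. The alternatives tried were DESeq2's size factors, testing without the filter, the Wald test of DESeq2 1.42.0, limma 3.58.1 without and with runs of neighbouring library numbers as a random block, a threshold of 0.01, a replicate block, 1 fit of all libraries, leaving out libraries, subsets by library number and shControl in place of Scrambled.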

Additional observations from a re-analysis of the deposited data

Results flagged for a closer look

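Of 26 sets of 4 to 10 libraries checked, 3 held a library far from the others, where chance alone gives about 5%. Cdx1 had 3.97 CPM in clone1 replicate 7, above 0.261 to 1.95 CPM in the other 8. It had 11.5 CPM in shControl replicate 3, above 1.63 to 5.31 CPM in the other 9. Klf5 had 171 CPM in clone1 replicate 1, above 109 to 139 CPM in the others.

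The clones, made with the same knockout, differed in 5 of the 9 factors, a share close to the 49.1% of all tested genes that passed between them. The log2 change of clone2 over clone1 was -1.55 for Cdx2, -1.82 for Gata6, -1.19 for Hnf4a, a fitted -4.66 for Hnf4g with clone2 at 0, and 0.37 for Elf3. The effect of the knockout minus that of the hairpin differed for Hnf4g (a fitted -5.46), Klf4 (0.83), Klf5 (0.75) and Prox1 (4.79), where 18.8% of all genes passed.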

How the results depend on the processing

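Leaving out replicates, the count of the 9 factors past the threshold ran from 1 to 4 for both clones over Scrambled and from 1 to 4 for shYAP over shControl. An adjusted p below 0.01 left 2 and 1 in these comparisons, and limma with the run of library numbers as a random block left 2 for both clones, 2 for clone1 and 1 for shYAP. The replicate block left 2 for clone1, though replicate numbers shared only a number (correlations of same-numbered libraries from -0.139 to 0.224). It called 3, 5, 5 and 3 for both clones, clone2, clone2 over clone1 and shYAP. With shControl replicates 5 to 10 or 8 to 10 alone, 2 passed for shYAP. The counts for clone2 over Scrambled and over clone1, 5 each, stayed within 4 to 7 under every alternative run. All these counts include Hnf4g, which passed the filter of the knockout fit only through Scrambled. Those for shYAP draw on Prox1 and Cdx1 too, which passed the filter of the hairpin fit only through shControl.

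Of 736 values of the 9 factors under alternatives, 623 kept direction and side of the threshold, 56 lost it, 26 gained it and 31 turned direction, none of these 31 past the threshold as first tested. Prox1 turned to -0.17, -0.018 and -0.31 with the replicate block (both clones, clone1, clone2), -0.12 and -0.33 with limma (both clones, clone2), -0.19, -0.033 and -0.34 with limma and runs, -1.11, -1.10 and -1.13 against shControl, -0.92 in clone1 and 2.15 in clone2 over clone1 within replicates 7 to 9, and -0.23 (both clones) and -1.06 (clone2) within replicates 1 to 6. Elf3 in clone2 turned to -2e-04 without a filter and -0.010 with limma and runs, and ran from -0.039 to 0.054 as Scrambled replicates were left out. Against shControl, both clones gave 0.060 for Hnf4a and 0.17 for Elf3. Cdx2 in clone1 turned to 0.023 with the replicate block, 0.43 against shControl and 0.24 within replicates 7 to 9, and in shYAP to -0.12 with shControl replicates 8 to 10 alone. Within replicates 7 to 9, Cdx1 turned to 0.14 in clone2 and 0.45 over clone1, and Klf5 to 0.028 over clone1. Klf4 in shYAP turned to 0.21 with the replicate block and 0.068 with shControl replicates 1 to 4. Hnf4g in shYAP ran from -0.57 to 0.55 as shYAP replicates were left out, and the Gata6 difference between knockout and hairpin effects from -1.05 to 0.27. The causes were not tested.

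Of 1181 values of named list genes, 991 were unchanged in direction and call, 184 lost the call and 6, all of values past the threshold as first tested, turned. Against shControl, Sox9 gave -0.022 (both clones) and -0.20 (clone1), Klf9 -0.18 (both clones), Ceacam1 0.13 (clone1) and Krt4 0.22 (clone2), and Xbp1 gave 0.13 in clone2 over clone1 within replicates 7 to 9.

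Over all genes, the count past the threshold moved by over 1.5 times in places. For both clones it was 2027, against 1184 at an adjusted p below 0.01, 908 with limma and runs, and 1254 or 1208 without Scrambled replicate 1 or 2. For clone1 it was 1459, against 756, 456, and 804 or 779 under the same changes. For clone2 over Scrambled it was 3810, against 2271 with limma and runs. For shYAP it was 1261, against 453 at an adjusted p below 0.01, 298 with limma and runs, 2065 in the fit of all libraries, 2604 or 2229 with shControl replicates 1 to 4 or 8 to 10 alone, and 509, 412 or 515 without shYAP replicate 1, 2 or 3. Without the filter the median change of all genes shifted to 0.12 for both clones and -0.21 for shYAP. Depth limits Cdx1, Gata6, Hnf4g and Prox1 most, and Scrambled and shYAP have 3 libraries each.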

Other observations

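The antisense gene Prox1os had 2, 13 and 19 counts in clone2 replicates 7 to 9, where Prox1 was high, and 0 to 3 counts in clone2 replicates 1 to 6, where it was low. Hnf4aos, annotated on the opposite strand over the first bases of Hnf4a, averaged 0.051 CPM in clone2 (2 counts) and 0.242 CPM in clone1 (10 counts). Scrambled averaged 0.289 CPM (4 counts). Whether the counting separated strands was not stated.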
